A study of Mus musculus with 6 samples.

Results

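The genes described here encode the enzymes of cholesterol and fatty acid synthesis, the regulators that switch them on and a pair of sterol exporters. They were chosen as the rows of the deposited expression table whose gene name equals 1 of 34 listed symbols, and all 34 were found among the 27734 genes of the table. By role they comprise 5 regulators of the sterol regulatory element-binding proteins (SREBPs), 7 enzymes of the mevalonate arm, 11 enzymes of the squalene and sterol arm, 2 sterol exporters and 9 enzymes of fatty acid synthesis. Their RNA was sequenced in chondrocytes, the cells that make cartilage, isolated from rib tissue of E18.5 mouse embryos. The 3 control libraries, called controls or wild type here, are labelled wild type, with no statement of whether those embryos carried floxed alleles or Cre. The 3 mutant libraries came from embryos with the genotype Jab1flox/flox; Col2a1-Cre, in which Cre recombinase driven by the Col2a1 promoter deletes Jab1 in cells of the cartilage lineage. Jab1 is the product of Cops5 and the catalytic part of the COP9 signalosome, which strips Nedd8 from cullin ligases. All cells were released with pronase and collagenase D and taken without culture. The labels do not say whether a library is 1 embryo or a pool, so the p-values reflect library-to-library spread, possibly technical.

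Levels are in FPKM, that is, sequenced fragments divided by gene length and by the library's mapped total, and can be compared between genes because length is divided out. Columns of the table summed to 571180 to 631534 FPKM. Relative to wild-type column 0, sequencing depth estimated from the commonest steps of short genes was 0.987 to 1.44 in the other libraries. Cops5 was lower in each mutant library, with 42.3, 39.8 and 40.1 FPKM in controls versus 17.0, 18.0 and 17.2 FPKM in mutant columns 0, 1 and 2. Of 12 chondrocyte markers 10 were measured, and all had a mean above 1 FPKM. Of these 10, Matn3 and Comp fell and 8 did not pass. Their summed level was 10897 to 12723 FPKM in wild-type libraries and 11984, 7700 and 7398 FPKM in mutant columns 0, 1 and 2, so mutant column 0 lay within the wild-type range and the other mutant columns below it. Ddx3y, a Y-linked gene, measured 0.157, 0.0281 and 0.450 FPKM in controls versus 7.78, 46.1 and 36.0 FPKM in mutant columns, while Xist, the RNA of the inactive X chromosome, measured 63.1, 64.6 and 65.9 against 37.3, 0.0176 and 0.0244 FPKM. Mutant column 0 thus held both RNAs, each between the controls and the other mutant columns. The labels do not say whether this library mixes embryos of both sexes. Because Ddx3y was above 0.450 FPKM in every mutant library and in no control, sex and genotype cannot be told apart. The title of wild-type column 0 carries day 30 of the month and all other titles day 24. Markers of red blood cells were lower in every mutant library, with a summed level over 5 genes of 196 to 221 FPKM in controls versus 14.7 to 49.3 FPKM in mutant libraries. The summed level of 8 adipocyte markers was 10.4 to 12.2 FPKM in controls versus 29.7 to 34.3 FPKM in mutant libraries. It was carried by Pparg and Cidea, which both rose, and in mutant columns 1 and 2 also by Fabp4. Fabp4 did not pass, and at 2.20 FPKM in mutant column 0 it lay within the control range of 1.77 to 4.06 FPKM. The defining markers Adipoq and Plin1 stayed at or below 0.310 and 0.155 FPKM and Ucp1 at or below 0.0247 FPKM in all libraries. Skeletal muscle markers summed to 139 to 169 FPKM in wild-type and 49.7 to 71.8 FPKM in mutant libraries, carried almost wholly by Tnnt3, and the other 5 genes overlapped between the groups. Macrophage (31.4 to 64.3 against 9.57 to 36.7 FPKM), fibroblast, osteoblast, endothelial, Schwann cell and keratinocyte marker sums overlapped between the groups. Single genes could differ from their sum. The macrophage markers Lyz2 (21.4 to 45.6 against 3.48 to 11.8 FPKM) and Ptprc (1.37 to 2.76 against 0.227 to 0.626 FPKM) were lower in every mutant library. Neither passed, and the other macrophage markers overlapped. The part of these cell types in the results that follow was not tested.

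Cells make cholesterol from acetyl-CoA through mevalonate, isoprenoid units, squalene and lanosterol, and make long fatty acids from the same precursor through malonyl-CoA. Both routes are switched on by SREBPs, transcription factors held in the endoplasmic reticulum that the escort protein SCAP carries to the Golgi for cleavage when sterols are low and that INSIG proteins retain when sterols are high. SREBP-2 acts mainly on sterol genes and SREBP-1 mainly on fatty acid genes. In cartilage, sterols matter also because Hedgehog proteins carry a cholesterol anchor, and inherited defects of the sterol enzymes EBP and NSDHL cause skeletal malformation in humans.

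SREBPs bind sterol regulatory elements and E-boxes, and usually act beside the factor NF-Y at CCAAT boxes. RefSeq promoter windows on build GRCm38.p6, the 250 bases before a start site, were at hand for 27 of the 34 genes in 35 windows. The 4 windows below are shown because they belong to genes of 2 kinds of pattern described further on: Hmgcs1 and Cyp51 were highest of all libraries in mutant column 0, whereas Sc5d and Elovl5 were lower in all 3 mutant libraries than in any wild-type library. They run 5′ to 3′ on the strand of the gene, and capitals mark matches, on either strand, to a sterol regulatory element (TCACNCCAC), the CCAAT box and the palindromic E-box (CACGTG). The windows are chr13:119690101-119690350 on the plus strand for Hmgcs1, chr5:4104698-4104947 on the minus strand for Cyp51, chr9:42264301-42264550 on the minus strand for Sc5d and chr9:77917115-77917364 on the plus strand for Elovl5.
Hmgcs1: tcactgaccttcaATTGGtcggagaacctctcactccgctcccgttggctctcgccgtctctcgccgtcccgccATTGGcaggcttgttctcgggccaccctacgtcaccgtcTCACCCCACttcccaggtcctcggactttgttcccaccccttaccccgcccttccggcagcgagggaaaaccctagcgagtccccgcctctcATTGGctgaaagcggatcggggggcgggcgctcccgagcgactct
Cyp51: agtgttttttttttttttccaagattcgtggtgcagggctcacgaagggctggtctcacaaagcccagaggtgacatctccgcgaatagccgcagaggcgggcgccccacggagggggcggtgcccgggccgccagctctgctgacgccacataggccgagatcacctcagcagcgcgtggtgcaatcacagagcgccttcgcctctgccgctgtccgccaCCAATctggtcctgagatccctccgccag
Sc5d: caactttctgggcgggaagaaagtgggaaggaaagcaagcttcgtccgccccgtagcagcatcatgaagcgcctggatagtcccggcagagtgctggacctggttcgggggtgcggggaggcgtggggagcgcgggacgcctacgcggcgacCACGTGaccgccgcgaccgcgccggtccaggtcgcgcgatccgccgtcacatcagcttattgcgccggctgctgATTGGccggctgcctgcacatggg
Elovl5: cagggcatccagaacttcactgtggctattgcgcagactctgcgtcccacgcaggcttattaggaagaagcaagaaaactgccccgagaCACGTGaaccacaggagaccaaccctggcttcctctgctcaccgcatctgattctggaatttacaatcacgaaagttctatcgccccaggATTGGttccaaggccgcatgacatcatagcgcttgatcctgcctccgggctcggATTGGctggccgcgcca
The Hmgcs1 window holds the sterol regulatory element 137 bases before the start site, with CCAAT boxes on the opposite strand at 237, 176 and 45 bases before it. Of the letters searched, the Cyp51 window holds 1 CCAAT box, 29 bases before the start. Sc5d holds an E-box and a CCAAT box, 98 and 24 bases before the start, and Elovl5 an E-box at 161 and CCAAT boxes at 71 and 17 bases before it. None of the marked matches overlap. Over all members with a window, the CCAAT box was present for 20 of 27 genes (74.1%), against 37.5% of all 27025 genes with a window of this length. An E-box of these letters was present for 7 of 27 genes (25.9%), against 6.86% of all genes. The sterol element of these letters was present for Hmgcs1 alone (3.7%), against 1.22% of all genes. Only exact matches were searched, so a window without a mark may still hold a sterol element of other letters. The genes with a CCAAT box include members of both patterns, so these letters did not separate them.

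Few genes of the pathway passed the test between mutant and wild-type cells. Of the 34 genes 32 had a mean of at least 1 FPKM and were tested, and of these 1 fell, none rose and 31 did not pass. The test was limma on log2(FPKM + 1) across all 14012 genes of that level, and rose and fell are used for adjusted p-values under 0.05. Because whole cell preparations were sequenced, fewer cells of a type and less RNA per cell cannot be told apart. The share of members that passed was 3.12%, against 6.07% of all genes tested, of which 3.48% rose and 2.59% fell. At an unadjusted p under 0.05, 1 member was higher and 9 were lower, against 12.7% and 12.0% of all genes tested. Groups did not overlap for 10 of 32 members (31.2%), near the 32.2% of all genes tested. Of these 10, 9 were lower in the mutant (28.1% of the 32, against 15.9% of all genes) and 1 was higher (against 16.3% of all genes). The median log2 fold change was -0.08 for the members and 0.00 for all genes tested. The plot of levels by library shows that expression of the pathway spans more than 2 orders of magnitude and that for most genes the groups overlap.

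**Figure D1:**
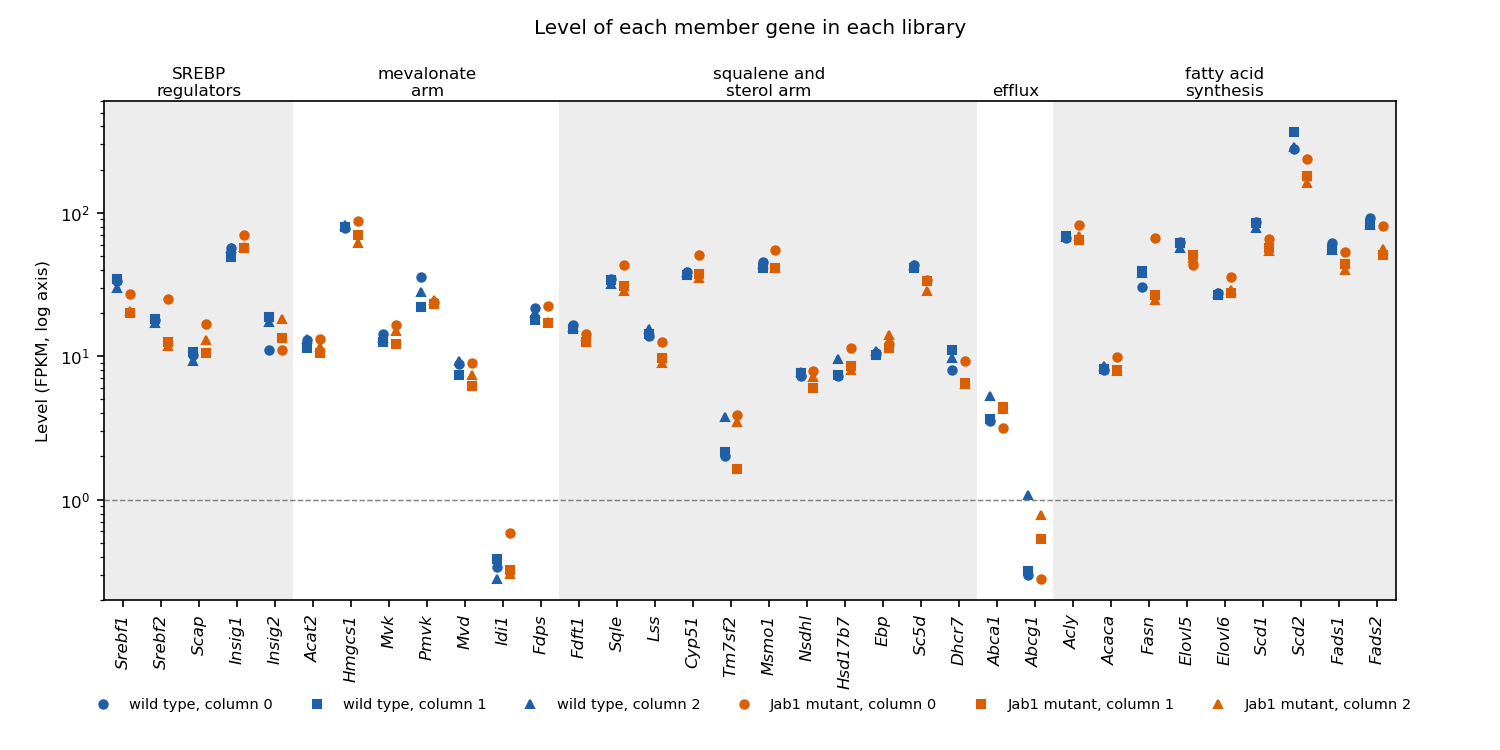
Level of each of the 34 genes in FPKM on a log axis, by role, with 1 point per library (blue, wild type; orange, Jab1 mutant; circle, square and triangle for columns 0, 1 and 2). Scd2 is the highest, Idi1 and Abcg1 lie near or below the dashed line at 1 FPKM, and mutant column 0 is the highest of 6 libraries for 17 of the 32 tested genes.

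Among the 9 enzymes of fatty acid synthesis 1 fell and 8 did not pass, and 5, all of them desaturases or the elongase that works beside them, had groups that did not overlap, with the mutant lower (55.6%, against 15.9% of all genes tested). Scd1, a stearoyl-CoA desaturase that makes oleate and palmitoleate (chromosome 19, 44394455 to 44407879, mm10), is the member that fell. It measured 86.4, 85.0 and 77.9 FPKM in controls versus 65.3, 56.8 and 53.8 FPKM in mutant columns 0, 1 and 2. All mutant libraries lay below all wild-type libraries, and the group means were 83.1 ± 4.52 and 58.6 ± 5.95 FPKM (SD, n = 3 libraries per group), 29.5% lower, and the log2 fold change in limma was -0.50 (SE 0.0943, adjusted p = 0.042). The call depended on the libraries used. Without wild-type column 0, 1 or 2 the adjusted p was 0.13, 0.13 and 0.11, without mutant column 1 or 2 it was 0.11 and 0.12, and once the Y-linked level entered as a covariate it was 0.74. Without mutant column 0 it passed (adjusted p = 0.032).

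Scd2, the related desaturase (chromosome 19, 44293674 to 44306864), had the highest level of all members and ranked 253 of 14012 genes by mean level. The libraries gave 276, 367 and 288 FPKM in controls versus 238, 179 and 161 FPKM in mutant columns. The groups did not overlap, with means of 311 ± 49.6 and 193 ± 40.3 FPKM, but the gene did not pass (log2 fold change -0.69, SE 0.185, adjusted p = 0.092). How reads shared by Scd1 and Scd2 were assigned is not given in the sources used here. Fads2 and Fads1, the delta-6 and delta-5 desaturases of polyunsaturated fatty acids, sit near each other elsewhere on chromosome 19 (10062765 to 10101746 and 10182888 to 10196877). Fads2 measured 92.2, 84.0 and 82.0 FPKM in controls versus 80.7, 50.7 and 56.3 FPKM in mutant columns (adjusted p = 0.18). In mutant column 0 it lay just under the lowest wild-type value, and the other mutant libraries were well below. Without that library Fads2 passed (log2 fold change -0.68, adjusted p = 0.032). Fads1 measured 61.7, 55.7 and 55.3 against 53.5, 43.9 and 40.1 FPKM (adjusted p = 0.17). Elovl5, the elongase that works on the products of these desaturases, measured 62.2, 61.2 and 56.5 against 43.1, 50.8 and 48.7 FPKM (log2 fold change -0.33, SE 0.0855, adjusted p = 0.084). Of these 5 genes, whose groups did not overlap, 4 did not pass. Over the 439 tested genes of chromosome 19, the share with groups that did not overlap and a lower mutant was 13.0%, and the median log2 fold change was 0.03.

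For the steps before desaturation the groups overlapped. Acly, which makes cytosolic acetyl-CoA from citrate, measured 66.2, 69.3 and 68.1 FPKM in controls versus 82.3, 64.4 and 68.7 FPKM in mutant columns (adjusted p = 0.70). Acaca, acetyl-CoA carboxylase, ranged from 8.01 to 8.58 FPKM in controls versus 7.91 to 9.94 FPKM in mutant libraries. Fasn, fatty acid synthase, measured 30.4, 39.1 and 38.1 FPKM in controls versus 66.9, 26.7 and 24.5 FPKM in mutant columns. Mutant column 0 was thus 1.87 times the wild-type mean, while mutant columns 1 and 2 were below every wild-type library, and the difference of the mean log2 values was small beside its error (log2 fold change -0.01, SE 0.390, adjusted p = 0.99). The group means in FPKM were 35.9 ± 4.74 and 39.4 ± 23.9, so the sign depends on the scale and no direction is given. Elovl6, which extends palmitate to stearate, measured 27.8, 26.6 and 27.7 against 35.8, 27.7 and 29.1 FPKM (adjusted p = 0.41). The ratio of Scd1 to Acly compares both steps within each library. This ratio came to 1.31, 1.23 and 1.15 in controls versus 0.793, 0.882 and 0.783 in mutant columns. The ratio of Scd2 to Acly was 4.18, 5.30 and 4.23 in controls versus 2.90, 2.78 and 2.35 in mutant columns. Neither of these ratios overlapped between the groups. Set against Fasn in place of Acly, Scd1 gave 2.84, 2.17 and 2.05 in controls versus 0.975, 2.13 and 2.20 in mutant columns, and Fads2 gave 3.03, 2.15 and 2.15 in controls versus 1.21, 1.90 and 2.30. Both of these overlapped, while the ratio of Scd2 to Fasn did not (7.55 to 9.40 in controls, 3.56 to 6.71 in mutants). These ratios were chosen after the values were seen and are given as a description.

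**Figure D2:**
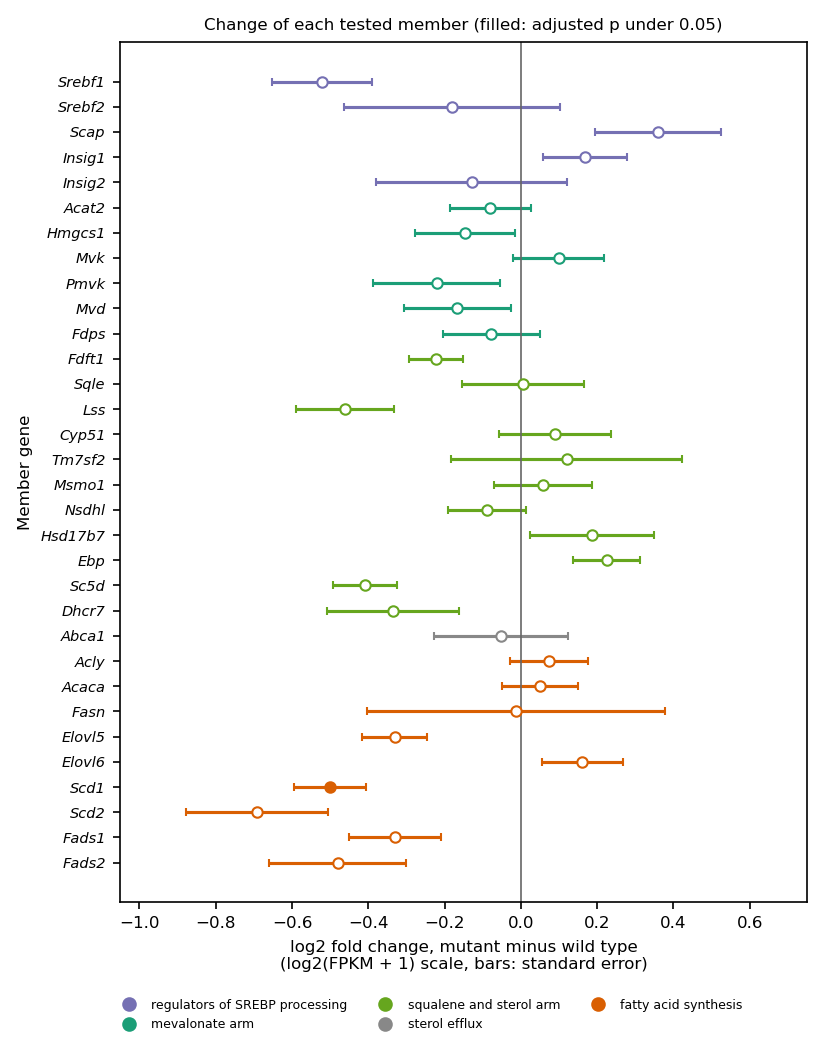
Log2 fold change, mutant minus wild type, of the 32 tested genes on the log2(FPKM + 1) scale, with bars for the standard error and colours for the role. The filled point is Scd1, the member that passed; the desaturases Scd2, Fads1 and Fads2, the elongase Elovl5, the sterol enzymes Lss and Sc5d, and Srebf1 lie on the same side of 0.

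Among the regulators, none of 5 passed. Srebf1, which encodes SREBP-1, measured 33.5, 34.7 and 29.9 FPKM in controls versus 27.1, 20.1 and 20.8 FPKM in mutant columns. The groups did not overlap, with means of 32.7 ± 2.49 and 22.6 ± 3.85 FPKM, 30.8% lower in the mutant (log2 fold change -0.52, SE 0.131, adjusted p = 0.078). The gene passed without mutant column 0 (log2 fold change -0.65, adjusted p = 0.032). Once the Y-linked level entered, its log2 fold change was 0.12 (adjusted p = 0.74). Srebf2, which encodes SREBP-2, measured 17.9, 18.3 and 17.0 against 25.2, 12.5 and 11.7 FPKM. The mutant libraries lay on both sides of the tight wild-type values, column 0 above and columns 1 and 2 below (adjusted p = 0.74), and without column 0 Srebf2 passed as lower (log2 fold change -0.51, adjusted p = 0.032). In the fit with the Y-linked covariate, in contrast, it passed as higher (log2 fold change 1.40, adjusted p = 0.039), so no direction is given for it. The Y-linked level was low in every control, so that fit rests almost wholly on differences among the mutant libraries. Its value of 1.40 exceeds what any library showed. The highest deviation of Srebf2 from the wild-type mean was 0.49, in mutant column 0. Scap, the escort of SREBPs, measured 10.2, 10.8 and 9.27 against 16.7, 10.5 and 13.0 FPKM (adjusted p = 0.24). Insig1, itself a target of SREBPs and the most abundant of the regulators, measured 56.9, 49.5 and 56.9 against 70.0, 56.8 and 57.4 FPKM (adjusted p = 0.40). Insig2, which retains SREBPs in the same way, measured 11.0, 18.8 and 17.3 against 11.1, 13.5 and 18.1 FPKM (adjusted p = 0.79). For these last 3 regulators the groups overlapped.

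The mevalonate arm gave no call. Of its 7 genes 6 were tested, and none had groups that did not overlap. Hmgcs1, the HMG-CoA synthase of the arm and its most abundant member, measured 78.7, 79.9 and 82.1 FPKM in controls versus 87.1, 70.2 and 61.9 FPKM in mutant columns (log2 fold change -0.15, SE 0.130, adjusted p = 0.52). As for Srebf2, wild-type values were close together and the mutant values lay on both sides of them. Fdps, farnesyl diphosphate synthase, measured 21.6, 18.0 and 20.0 against 22.3, 17.0 and 17.2 FPKM. The remaining genes were Acat2, a cytosolic acetoacetyl-CoA thiolase, the kinases Mvk and Pmvk, and the decarboxylase Mvd. Their log2 fold changes ranged from -0.22 for Pmvk to 0.10 for Mvk. Idi1, the isomerase of the isoprenoid units, was at 0.280 to 0.583 FPKM over the 6 libraries, under the level needed for the test, with its highest value in mutant column 0.

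In the squalene and sterol arm none of 11 enzymes passed, and 3 (27.3%) had groups that did not overlap with the mutant lower, against 15.9% of all genes tested. Sc5d, the lathosterol oxidase near the end of the pathway, came closest to the threshold. It measured 43.2, 41.2 and 43.5 FPKM in controls versus 33.8, 33.5 and 28.6 FPKM in mutant columns, with means of 42.6 ± 1.24 and 31.96 ± 2.95 FPKM (log2 fold change -0.41, SE 0.0845, adjusted p = 0.051). It passed in 6 of the alternative fits, which include protein-coding genes only (adjusted p = 0.024) and a pseudocount of 0.1 (adjusted p = 0.048). Lss, which closes squalene epoxide into lanosterol, measured 13.8, 14.4 and 15.4 against 12.6, 9.66 and 8.94 FPKM (adjusted p = 0.10) and passed without mutant column 0 (log2 fold change -0.59, adjusted p = 0.032). Fdft1, squalene synthase, measured 16.6, 15.4 and 16.1 against 14.2, 12.6 and 13.9 FPKM (log2 fold change -0.22, adjusted p = 0.13). Its gene overlaps Ctsb on the opposite strand by 774 bases, and whether counting used strand is not stated. Ebp, the sterol isomerase on the X chromosome, was the single member with a higher mutant group that did not overlap, at 10.6, 10.3 and 10.9 against 12.2, 11.4 and 14.0 FPKM (log2 fold change 0.22, SE 0.0869, adjusted p = 0.19). Because Ebp is X-linked, the Xist and Ddx3y values given above bear on it, and their part was not tested. Nsdhl, the other X-linked enzyme of the arm, ranged from 7.23 to 7.71 FPKM in controls versus 6.03 to 7.94 FPKM in mutant libraries.

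A further set of sterol enzymes had its highest value in mutant column 0, with the other mutant columns among or below the wild-type values. Cyp51, the lanosterol demethylase, measured 38.5, 36.7 and 38.8 FPKM in controls versus 50.9, 37.2 and 35.1 FPKM in mutant columns. Msmo1, the methylsterol oxidase that acts after it and the most abundant enzyme of this arm, measured 45.1, 40.9 and 44.2 against 54.7, 40.9 and 41.2 FPKM. Sqle, squalene epoxidase, measured 34.7, 34.02 and 31.8 against 43.1, 31.1 and 28.3 FPKM. For these 3 genes adjusted p-values were 0.75, 0.82 and 0.99, and without mutant column 0 the log2 fold changes were -0.07, -0.08 and -0.17. Hsd17b7, a ketosteroid reductase of the pathway, reached 11.5 FPKM in mutant column 0 against 7.25 to 9.55 FPKM in wild-type libraries. Dhcr7, which converts 7-dehydrocholesterol to cholesterol, was not of this kind: column 0 lay among the wild-type values and columns 1 and 2 below all of them. It measured 7.97, 11.0 and 9.70 against 9.30, 6.54 and 6.37 FPKM (adjusted p = 0.29). Tm7sf2, a sterol reductase, was the lowest of the tested members, at 1.63 to 3.88 FPKM over all libraries.

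The sterol exporters were low in these cells. Abca1, which loads cholesterol onto apolipoproteins, measured 3.51, 3.67 and 5.32 FPKM in controls versus 3.17, 4.45 and 4.26 FPKM in mutant columns (log2 fold change -0.05, SE 0.176, adjusted p = 0.89). Abcg1, which exports sterol to lipoprotein particles, ranged from 0.278 to 1.08 FPKM and was not tested.

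Mutant column 0 stood apart from the other mutant libraries for many of these genes. It was the highest of the 6 libraries for 17 of the 32 tested members (53.1%), against 24.2% of all genes tested. By role these were 3 of 5 regulators, 4 of 6 mevalonate enzymes, 6 of 11 sterol enzymes and 4 of 9 fatty acid enzymes. The median deviation from the wild-type mean over all tested members was 0.10, -0.23 and -0.18 in mutant columns 0, 1 and 2 on the log2(FPKM + 1) scale, while over all genes tested it was 0.01, -0.01 and -0.01. In the sterol arm the medians were 0.19, -0.28 and -0.11, and for fatty acid synthesis they were -0.09, -0.38 and -0.51. Summed over the tested sterol-arm enzymes, the level was 221 to 231 FPKM in wild-type libraries and 254, 199 and 195 FPKM in mutant columns. Fatty acid synthesis genes summed to 702 to 796 FPKM in controls versus 676, 508 and 491 FPKM in mutant columns. Scd2 alone gave 276 to 367 FPKM of the control sums and 238, 179 and 161 FPKM of the mutant sums. It was the largest single part of each sum, so these sums weigh that gene above the others. Mutant column 0 is also the library with the chondrocyte marker sum in the wild-type range, with Xist at 37.3 and Ddx3y at 7.78 FPKM between the values of the other libraries, and with the lowest sum of red blood cell markers (14.7 FPKM). The part of these features in the pattern was not tested. Without this library 5 of 32 members fell (Scd1, Fads2, Lss, Srebf1 and Srebf2), and none fell without any other 1 library. Calls over all genes moved in the same way. Without this library 289 of 13957 genes fell, and without each other library 66 to 105 of 13940 to 14000 genes fell. In the fit with the Y-linked covariate, which rests almost wholly on differences among the mutant libraries, none fell and Srebf2 rose.

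**Figure D3:**
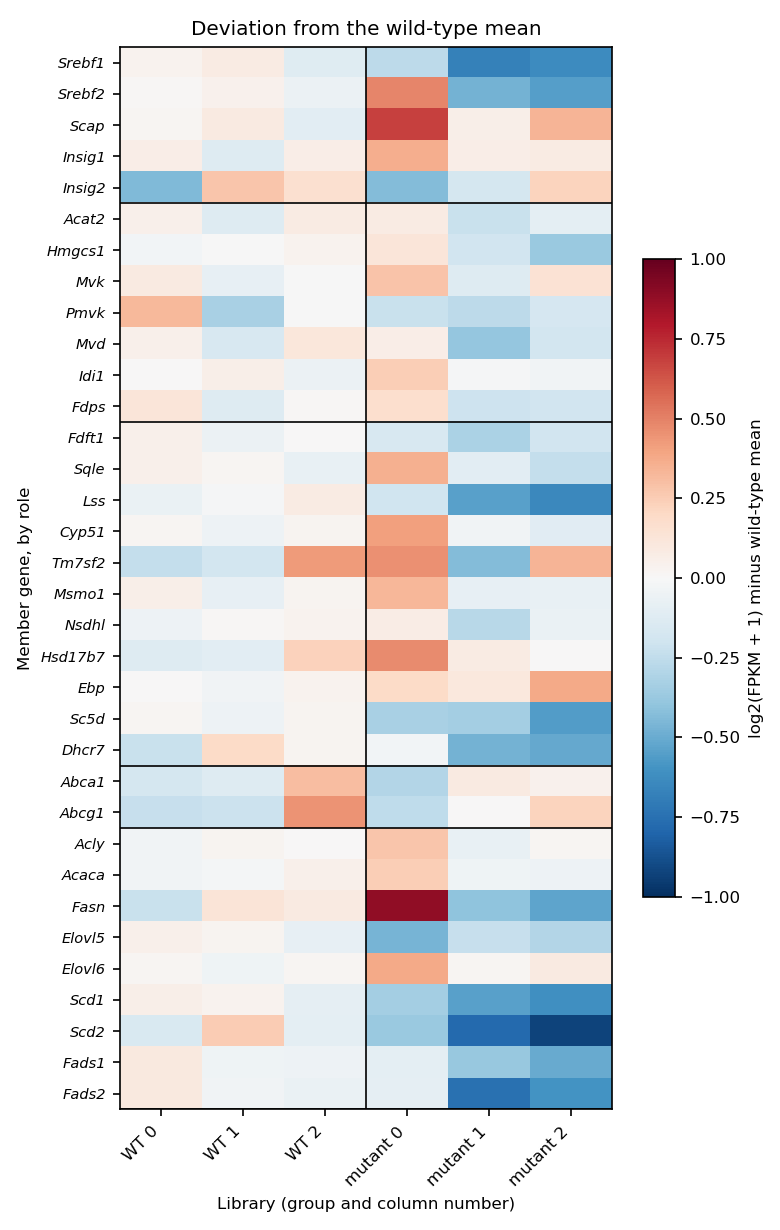
Deviation of each of the 34 genes from its wild-type mean on the log2(FPKM + 1) scale, with 1 column per library, rows ordered by role and red for higher and blue for lower than the wild-type mean. Mutant column 0 is red for Fasn, Srebf2 and several sterol enzymes, where mutant columns 1 and 2 are mostly blue. Scap is above the wild-type mean in all 3 mutant columns, and Srebf1, Lss, Sc5d, Elovl5, Scd1 and Scd2 are blue in all 3.

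The genes around these routes were taken from 5 lists on SREBP cleavage and turnover, isoprenoid branches, sterol transport, liver X receptors and further fatty acid synthesis. None of the 10 tested genes of SREBP cleavage and sterol-sensing turnover passed. Mbtps1, the first of the proteases that release SREBPs, is known to be needed for cartilage matrix secretion and was the most abundant of them, with means of 57.7 ± 1.46 and 60.7 ± 4.10 FPKM (adjusted p = 0.58). None of 12 genes of the isoprenoid branches passed, with Fnta, a subunit of protein prenyltransferases, the most abundant at 50.9 ± 1.69 and 48.7 ± 1.63 FPKM (adjusted p = 0.58). Of 11 genes of liver X receptors and oxysterol metabolism 6 were tested and none passed, and Lpcat3, a phospholipid-remodelling target of these receptors, measured 20.1 ± 0.924 and 20.0 ± 2.18 FPKM (adjusted p = 0.96).

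Sterol transport and esterification gave 2 rises among 14 genes, with none lower and 12 not passing. The share that passed was 14.3%, against 6.07% of all genes tested, of which 3.48% rose and 2.59% fell. Mylip, an E3 ligase that marks lipoprotein receptors for degradation, measured 5.66, 6.40 and 5.92 FPKM in controls versus 10.3, 11.4 and 8.56 FPKM in mutant columns. Every mutant library exceeded every wild-type library (log2 fold change 0.66, SE 0.113, adjusted p = 0.034). Stard3, which moves cholesterol between endosomes and other membranes, rose from 7.57, 6.36 and 7.27 to 10.7, 9.30 and 10.5 FPKM (log2 fold change 0.47, SE 0.0905, adjusted p = 0.043). Soat1, which esterifies cholesterol and was the most abundant of the list, measured 64.4 ± 10.1 and 50.1 ± 4.40 FPKM (adjusted p = 0.19). Stard3 did not pass without any 1 of the 6 libraries, and Mylip passed when mutant column 2 was left out but not when any of the other 5 libraries was.

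Of 16 tested genes in the list of further fatty acid synthesis and elongation 2 rose, 1 fell and 13 did not pass. The share that passed was 18.8%, against 6.07% of all genes tested. Slc25a1, the mitochondrial carrier that exports citrate for acetyl-CoA synthesis by Acly, fell from 35.2, 33.8 and 28.6 FPKM in controls to 15.8, 18.8 and 18.499 FPKM in mutant columns. This was 45.7% lower (log2 fold change -0.84, SE 0.110, adjusted p = 0.018), and mutant column 0 was the lowest of the libraries, unlike its place for Acly. Acsl5, which activates long fatty acids, rose from 10.4, 9.88 and 11.7 to 17.5, 15.8 and 17.6 FPKM (log2 fold change 0.63, SE 0.0861, adjusted p = 0.021). Hacd3, a dehydratase of very long chain elongation, rose from 19.8, 19.5 and 20.0 to 24.4, 25.3 and 26.3 FPKM (log2 fold change 0.34, SE 0.0579, adjusted p = 0.034). Tecr, the reductase of the same cycle and the most abundant gene of the list, measured 55.7 ± 3.18 and 49.7 ± 3.72 FPKM (adjusted p = 0.29). Leaving out 1 library at a time, Slc25a1 passed without wild-type column 2 or mutant column 0, Acsl5 without wild-type column 2 or mutant column 0 or 1, and Hacd3 without mutant column 0 alone. Mutant column 0 was the highest library for 1 of these 16 genes, and for 5 of the 10 genes of SREBP cleavage and turnover, a share of 50.0% beside the 53.1% of the members. Over all 73 tested related genes, fatty acid oxidation included, it was the highest for 10 (13.7%), against 24.2% of all genes tested. Differences between the lists were not tested.

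**Figure D4:**
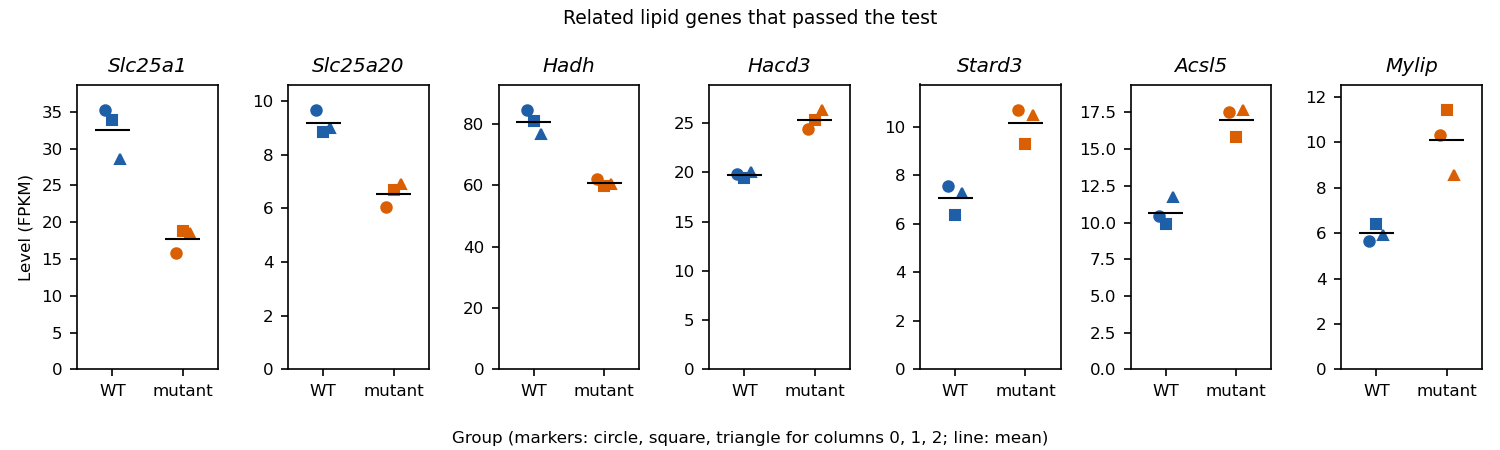
Levels in FPKM of the 7 related lipid genes that passed, with 1 panel per gene, axes from 0, 1 point per library (blue, wild type; orange, mutant; circle, square and triangle for columns 0, 1 and 2) and a line for each group mean. In each panel the groups do not overlap, and mutant column 0 lies with the other mutant libraries. Passing the test favours genes with a small spread within each group, so this follows in part from how the genes were chosen.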

How the data were processed

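The members and gene lists were chosen with earlier results of these data known. RNA was sequenced from ribosome-depleted stranded libraries, per the labels' protocols, and the deposited table holds FPKM values made by the authors. STAR, Cufflinks, Cuffdiff and the build mm10 are named, per the submitters' processing notes, and CLC Genomics Workbench, per the labels' protocols. Versions, annotation and any scaling between libraries are not given in the sources used here. Of 6 columns, 4 matched a sample by name and 2 (numbered 2) matched their group. Without read counts, intervals for counting error could not be given. A linear model for genotype was fitted to log2(FPKM + 1) for the 14012 genes averaging 1 FPKM or more, using limma 3.58.1 in R 4.3.3 (eBayes with trend=TRUE, two-sided), with Benjamini-Hochberg adjustment. Fold changes on this scale understate the changes of low genes. An exact permutation test of 3 against 3 libraries cannot go below 0.1, so none is given. Per-library values are given for members that pass, have groups that do not overlap, regulate SREBPs or are highest in their role, and for some others chosen after their values were seen. Of related lists, passing genes and the most abundant are named. The model was tested on simulated data. Tried as alternatives were a robust prior, library weights, quantile normalization, median-of-ratios scaling, pseudocounts of 0.1 and 0.5, a minimum of 5 FPKM or none, protein-coding genes only, a covariate for Y-linked level, a replicate block and each library left out. Coordinates are from GENCODE M21 (mm10), which held 27578 of the gene identifiers (99.4%).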

Additional observations from a re-analysis of the deposited data

How the results depend on the processing

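The count of falling members moved from 1 to 0 without the filter, with the Y-linked covariate and with the replicate block. It moved to 2 with a pseudocount of 0.1, a minimum mean of 5 FPKM, quantile normalization and a robust variance prior, to 5 with protein-coding genes only and to 6 with library weights. Leaving out 1 library gave 0 to 5, with 5 without mutant column 0. Rising members numbered 1 with the Y-linked covariate and 0 in all other settings. For all related genes, fatty acid oxidation included, the main counts were 4 higher and 3 lower of 73 tested (9.59%, against 6.07% of all genes tested). Higher ones numbered 5 for weighted libraries and among protein-coding genes, 2 without the filter and with quantile normalization and 0 with the covariate and the block, and leaving out 1 library gave 0 to 2. Lower ones numbered 2 without the filter, 5 with a minimum mean of 5 FPKM, 6 for weighted libraries, 7 among protein-coding genes and 0 with the covariate and the block, and leaving out 1 library gave 0 to 2. The replicate block used the column numbers. Correlations of same-numbered deviations were -0.03, -0.04 and -0.02, and those of differently numbered ones -0.006 to 0.042. These values gave no sign that the numbers pair the libraries, but cannot establish that no pairing exists. Of 746 gene values under alternatives, 626 kept their direction and side of the threshold. Over all genes tested, 487 rose and 363 fell, and the numbers were 99 to 377 and 66 to 289 with 1 library left out (377 and 289 without mutant column 0), 295 and 166 without the filter, 816 and 672 for weighted libraries, 741 and 632 among protein-coding genes, 189 and 47 with the covariate and 44 and 16 with the block.

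Log2 fold changes of opposite sign were as follows, and the cause was not tested. Those with the Y-linked covariate rest almost wholly on differences among the mutant libraries, because that level was low in every control. With the Y-linked covariate, Acat2 0.29, Dhcr7 0.41, Fads1 0.20, Fads2 0.46, Fasn 2.10, Fdps 0.48, Hmgcs1 0.45, Lpcat3 0.35, Lss 0.14, Mvd 0.38, Nsdhl 0.31, Scd2 0.088, Srebf1 0.12, Srebf2 1.40 and Tecr 0.072. With library weights, Acaca -0.029, Acly -0.0017, Cyp51 -0.014, Msmo1 -0.031, Sqle -0.071 and Tm7sf2 -0.18. With quantile normalization, Sqle -0.018. Leaving out 1 library, ranges that crossed 0 were Abca1 -0.14 to 0.10, Acaca -0.047 to 0.10, Acly -0.028 to 0.15, Cyp51 -0.072 to 0.19, Fasn -0.46 to 0.24, Insig2 -0.35 to 0.026, Lpcat3 -0.082 to 0.068, Msmo1 -0.077 to 0.13, Nsdhl -0.17 to 0.0038, Sqle -0.17 to 0.13, Srebf2 -0.51 to 0.0068 and Tm7sf2 -0.048 to 0.40.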

Other observations

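A list of fatty acid oxidation, the breakdown of fatty acids in mitochondria and peroxisomes, held 2 genes that fell. Of 17 listed genes 15 were tested, of which 2 fell (13.3%, against 2.59% of all genes tested), none rose and 13 did not pass. Groups did not overlap for 5, all lower in the mutant (33.3%, against 15.9% of all genes tested). Hadh, the short-chain hydroxyacyl-CoA dehydrogenase of the mitochondrial cycle and the most abundant gene of the list, fell from 84.4, 80.8 and 76.8 FPKM in controls to 62.1, 59.7 and 60.4 FPKM in mutant columns 0, 1 and 2 (log2 fold change -0.40, SE 0.0642, limma adjusted p = 0.029). Slc25a20, which carries acylcarnitines into mitochondria, fell from 9.65, 8.85 and 9.01 to 6.04, 6.70 and 6.91 FPKM (log2 fold change -0.43, SE 0.0749, adjusted p = 0.035). The median log2 fold change of the tested list was 0.00. Without any 1 of the 6 libraries Slc25a20 did not pass, and Hadh passed when mutant column 0 was left out but not when any of the other 5 was.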
